A study of Homo sapiens with 6 samples.

Results

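Transforming growth factor beta (TGF-beta) signals from the cell surface to the genes through a short relay. A ligand dimer brings together the type II receptor TGFBR2 and the type I receptor TGFBR1, the activated type I receptor phosphorylates receptor-regulated SMADs, and these enter the nucleus with the common partner SMAD4 to act on target genes. SMAD2 and SMAD3 carry the TGF-beta and activin signal, SMAD1, SMAD5 and SMAD9 carry the signal of the bone morphogenetic proteins (BMPs), and SMAD6 and SMAD7 are inhibitory SMADs that dampen the relay. In epithelial cells of the lung the pathway is known for restraining growth and for driving the loss of epithelial features, and A549 cells are a common model for the latter.

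The SMADs and TGF-beta receptors described here are the 10 genes SMAD1 to SMAD7, SMAD9, TGFBR1 and TGFBR2, chosen by their gene symbols. All 10 were found among the 32192 genes of the count table and among the 31951 genes of the FPKM table. A549, a long-established human line, was derived from a lung adenocarcinoma. The study compared 3 RNA-seq libraries of A549 cells that received a plasmid for APEX1 (APEX1-OE) with 3 libraries of A549 cells that received the control plasmid (Ctrl). The insert was cloned into pIRES-hrGFP-1a and carried a FLAG tag. APEX1 is a DNA repair endonuclease that also acts as a redox factor and binds RNA, and the study asked about its part in gene expression and alternative splicing. The comparison of the groups asks whether the RNA levels of the relay differed with the APEX1 plasmid. The methods of the study speak in general of experiments done 3 times, and the sources used here do not say whether the 3 libraries of a group came from separate cultures, so p values measure the spread between these libraries, which may be technical. The counts summed to between 28131955 and 41009197 per library. RNA of whole cultures was measured, so fewer cells with a transcript and less of it per cell cannot be told apart.

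The labels were checked first, and values by library are given throughout in the order of replicates 1, 2 and 3. FPKM are fragments scaled by transcript length and sequencing depth. For APEX1 they were 618, 680.3 and 768 in APEX1-OE and 129, 126 and 124 in Ctrl. Every APEX1-OE library was above every Ctrl library, and APEX1 was the 1 gene called among 16971 tested genes (log2 fold change 2.42, standard error 0.171, adjusted p = 0.00809 by the edgeR quasi-likelihood test, Benjamini-Hochberg adjusted). Leaving out APEX1-OE replicate 2 or 3, or Ctrl replicate 1 or 2, ended that call (adjusted p of 0.118, 0.0674, 0.21 and 0.207 by the same edgeR test), while the fold change moved little. Of the epithelial keratins, KRT8 stood at 3069 ± 443 FPKM (SD, n = 3) in Ctrl and at 3023 ± 468 FPKM (SD, n = 3) in APEX1-OE, and KRT18 at 2517 ± 438 and 2410 ± 374 FPKM (SD, n = 3 each). ALDH1A1 and AKR1B10, enzymes abundant in A549 cells, stood at 1200 ± 359 and 806 ± 24.0 FPKM in Ctrl (SD, n = 3 each). In APEX1-OE these 2 stood at 1357 ± 638 and 665 ± 198 FPKM (SD, n = 3 each). EPCAM, an epithelial adhesion gene of the same list, was low, at 0.317 ± 0.180 FPKM in Ctrl and 0.367 ± 0.132 in APEX1-OE (SD, n = 3 each), with between 15 and 47 counts per library. Most defining markers of other cells were at or near 0. The leukocyte gene PTPRC had 1 count in 6 libraries, the endothelial gene CDH5 had at most 5 counts in a library, and the alveolar type II gene SFTPC had at most 7. NAPSA was the highest of the alveolar type II list, at 1.45 ± 0.269 FPKM in APEX1-OE and 1.31 ± 0.552 in Ctrl (SD, n = 3 each). The monocyte gene CD14 was the highest of the leukocyte list, at 2.09 ± 0.824 FPKM in APEX1-OE and 2.78 ± 0.354 in Ctrl, and COL1A1 of the fibroblast list, at 0.570 ± 0.0819 and 0.627 ± 0.0907 FPKM (SD, n = 3 each).

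The libraries also stood apart in a way that the conditions did not follow. The first principal component of log2 CPM (counts scaled to library size, with TMM factors) took 72.6% of the variance and grouped Ctrl replicates 1 and 2 with replicate 1 of APEX1-OE. Ctrl replicate 3 lay with the other 2 libraries of APEX1-OE. These are called here the lower and the higher side, by their position on that component. The difference between the sides followed GC content across genes. Of 4 equal bins of the tested genes by GC, the lowest (23.5% to 42.5% of the canonical transcript) had a median difference, higher minus lower side, of 0.81 on the log2 CPM scale, and the highest (57.4% to 85.5%) of -0.56. Genes are not independent replicates in this comparison.

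The SMADs and receptors differed between the sides in both directions. TGFBR1, TGFBR2, SMAD1, SMAD2, SMAD4 and SMAD5, with canonical transcripts of 36.9% to 47.0% GC, were each higher in CPM in all 3 libraries of the higher side than in all 3 of the lower side. SMAD6, with 58.8% GC, was lower in all 3 libraries of the higher side. SMAD3 and SMAD7, with 51.1% and 57.0% GC, overlapped between the sides. The same separation was found in 35.5% of the tested genes in the direction of the receptors and in 30.9% in the direction of SMAD6. The part of GC content in the values of the SMADs and receptors was not tested.

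**Figure D1:**
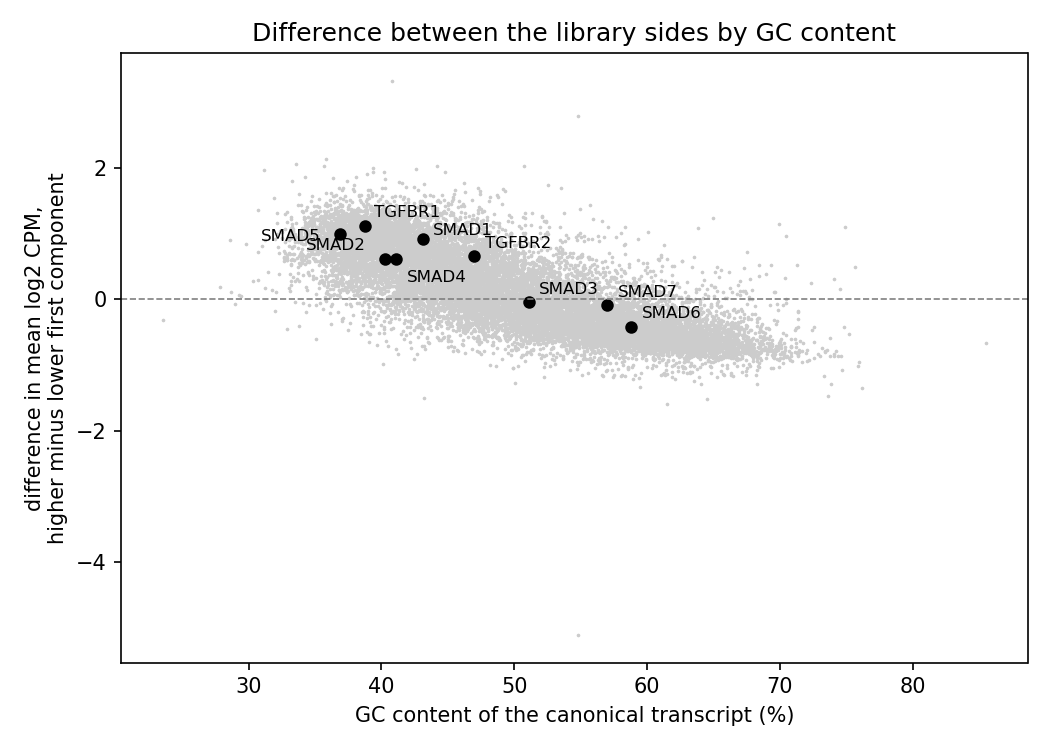
Each grey point is a tested gene, placed by the GC content of its canonical transcript (x axis, %) and by its difference in mean log2 CPM between the 3 libraries of the higher and the 3 of the lower side of the first principal component (y axis); black points are the 9 tested SMADs and receptors. TGFBR1 sits at 1.12 with 38.8% GC and SMAD6 at -0.42 with 58.8% GC.

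Across the 10 genes the FPKM levels in Ctrl spanned from SMAD3 and TGFBR2 at the top to SMAD9 at the bottom. SMAD3 had a mean of 43.5 ± 2.50 FPKM and TGFBR2 of 43.4 ± 11.8 FPKM (SD, n = 3 each), and their ranges overlapped. Below them, separated from TGFBR2 in every library, came SMAD6 at 7.39 ± 0.599, TGFBR1 at 6.05 ± 3.07, SMAD7 at 4.84 ± 0.524, SMAD5 at 3.08 ± 1.21, SMAD1 at 2.19 ± 1.05, SMAD4 at 2.16 ± 0.748 and SMAD2 at 1.75 ± 0.474 FPKM in Ctrl (SD, n = 3 each). From SMAD6 down to SMAD2 each gene overlapped in range across libraries with the next in order. Within a library, however, SMAD5 was above SMAD1 and SMAD4 above SMAD2 in FPKM in all 6 libraries, and SMAD7 was above SMAD5 in 5 of 6. The order of SMAD4 and SMAD2 rests on the length given to SMAD2. With a shorter SMAD2 transcript, chosen after seeing the data, the Ctrl means were 6.28 CPM per kb for SMAD2 and 2.67 for SMAD4. The order of the other neighbours turned with the library side. SMAD3 was above TGFBR2 and SMAD6 above TGFBR1 in the 3 libraries of the lower side only, and TGFBR1 was above SMAD7 and SMAD1 above SMAD4 in the 3 of the higher side only, so the means of these neighbours give no order that holds across libraries. The order of the means in APEX1-OE placed TGFBR2 before SMAD3 and TGFBR1 before SMAD6, which exchanged neighbours whose ranges overlapped, and was otherwise the same.

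**Figure D2:**
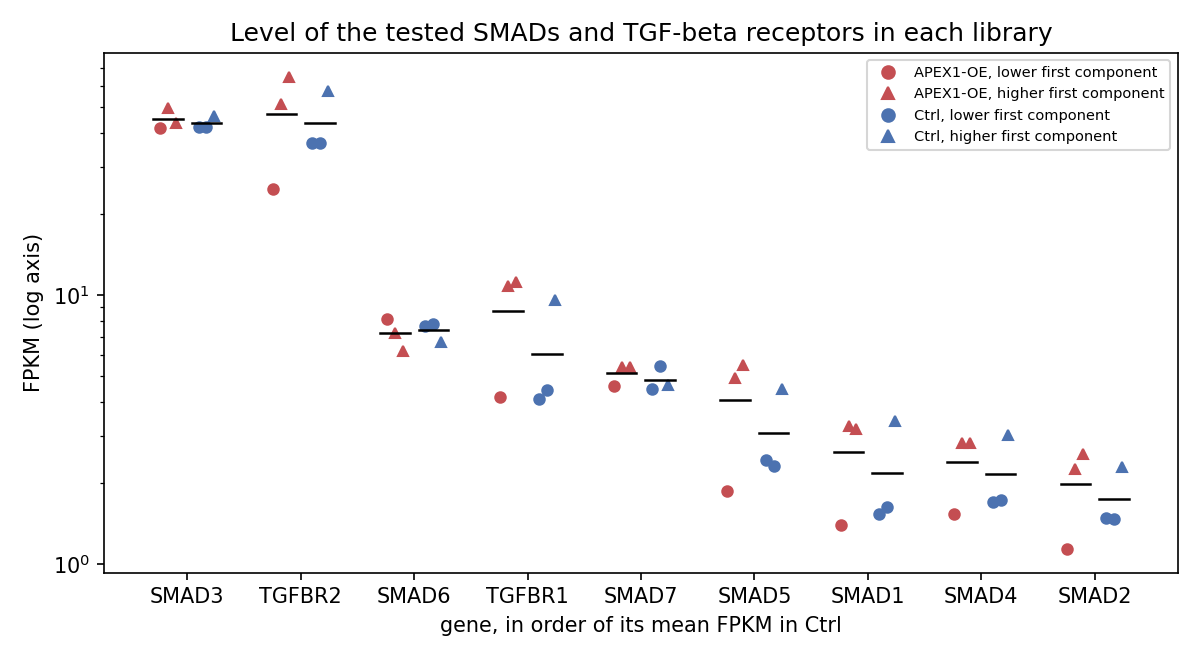
FPKM of the 9 tested genes in each of the 6 libraries (log y axis), in order of the Ctrl mean; colour gives the group, the shape gives the side of the first principal component, and black lines are group means of 3 libraries. SMAD3 and TGFBR2 sit between 24.8 and 64.8 FPKM and every other gene at or below 11.1 FPKM.

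Of the 10 genes, 9 passed the filter on low counts and SMAD9 did not. None of the 9 was called by the edgeR quasi-likelihood test on condition alone, where 0.00589% of all tested genes were called, and none had an unadjusted p under 0.05, where 0.695% of all tested genes did. DESeq2 and limma on log2(FPKM + 1) also called none of them and gave none an unadjusted p under 0.05. In no case did the groups separate, against 1.38% of the tested genes with every APEX1-OE library above every Ctrl library and 2.01% with every APEX1-OE library below. The median log2 fold change of the 9 was 0.12, beside 0.033 for all tested genes.

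With the library side as a term in the same test, 4 genes were called over the whole table (0.0236% of the tested genes) and 1973 had an unadjusted p under 0.05 (11.6%). None of the 9 SMADs and receptors was called in that fit and none had an unadjusted p under 0.05. The standard errors of their log2 fold changes lay between 0.0887 and 0.141 there, and between 0.165 and 0.395 without the term. The median log2 fold change of the 9 was 0.00097 with the term, beside 0.0081 for all tested genes. The library side was defined from these libraries and is not a labelled batch. It was taken from the same values that the fit then tests. Smaller standard errors with the term follow in part from that definition, and its p values may be too small. Of the epithelial markers, KRT7 had a log2 fold change of 0.34 (unadjusted p = 0.00361) in the edgeR fit with that term, and KRT19 of 0.28 (unadjusted p = 0.00673). CDH1 had one of -0.35 (unadjusted p = 0.0123) and AKR1B10 of -0.40 (unadjusted p = 0.00503), and none of these was called. The side is a cut of a graded component. On the lower side APEX1-OE replicate 1 lay at -58.51, and Ctrl replicates 1 and 2 at -32.66 and -31.06. On the higher side Ctrl replicate 3 lay at 39.19, between the APEX1-OE libraries at 33.13 and 49.9. What such differences within a side add to the fold changes of that fit was not tested. KRT8, KRT18, ALDH1A1 and EPCAM had no unadjusted p under 0.05 there.

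**Figure D3:**
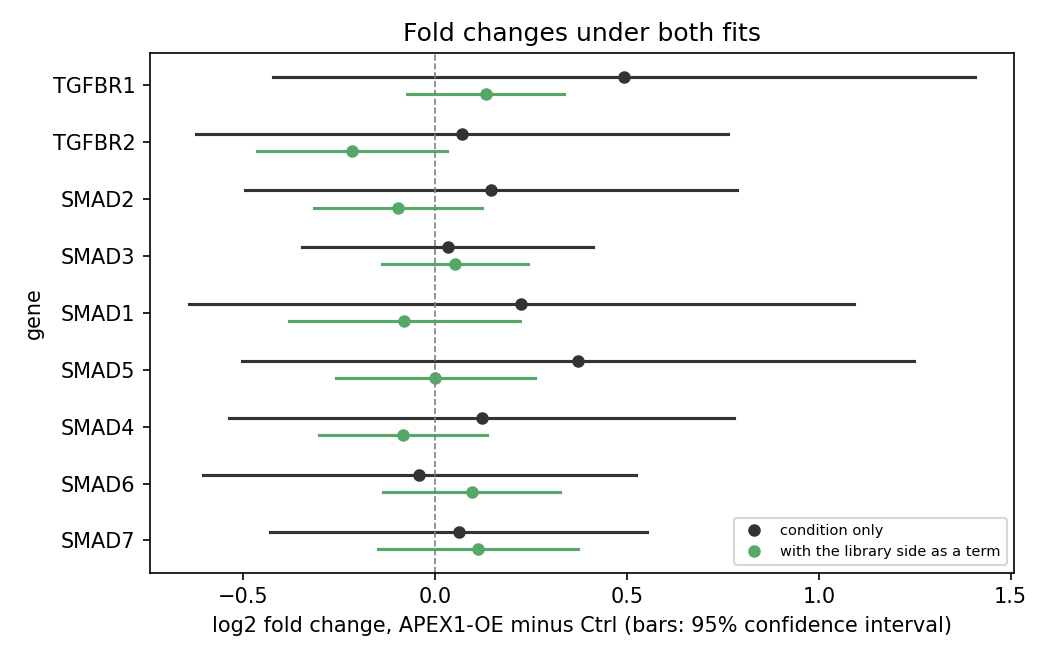
Log2 fold change (APEX1-OE minus Ctrl, x axis) of the 9 tested genes (y axis) from the edgeR quasi-likelihood test, black for condition alone and green with the library side added; points are estimates and bars 95% confidence intervals. Every interval spans 0, and those of the fit with the side are narrower, which follows in part from a side defined from the same values.

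The type II receptor TGFBR2 (ENSG00000163513.17) binds the ligand first and activates the type I receptor. In GRCh38 it lies on chromosome 3, plus strand, from 30606601 to 30694142. TGFBR2 stood at 24.8, 51.3 and 64.8 FPKM in APEX1-OE and at 36.6, 36.6 and 57.1 FPKM in Ctrl. APEX1-OE held both the lowest and the highest library, and the groups overlapped. The log2 fold change was 0.071 (95% interval -0.62 to 0.76, unadjusted p = 0.818), and with the library side as a term it was -0.21 (interval -0.46 to 0.033, unadjusted p = 0.0838).

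The type I receptor TGFBR1 (ENSG00000106799.12) is the kinase that phosphorylates SMAD2 and SMAD3. It lies on the plus strand of chromosome 9, from 99104038 to 99154192. TGFBR1 stood at 4.18, 10.8 and 11.1 FPKM in APEX1-OE and at 4.12, 4.45 and 9.59 FPKM in Ctrl. The 3 high libraries were those of the higher side, and the groups overlapped. Its log2 fold change of 0.49 (95% interval -0.42 to 1.41, unadjusted p = 0.25) was the largest of the 9 genes in that fit, and with the library side as a term it was 0.13 (interval -0.073 to 0.34, unadjusted p = 0.189).

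SMAD3 (ENSG00000166949.15) binds DNA directly and carries much of the transcriptional response to TGF-beta. It lies on the plus strand of chromosome 15, from 67063763 to 67195173. SMAD3 stood at 41.9, 49.5 and 43.5 FPKM in APEX1-OE and at 42.2, 41.9 and 46.4 FPKM in Ctrl. The 6 libraries lay close together and the groups overlapped. The log2 fold change was 0.034 (95% interval -0.34 to 0.41, unadjusted p = 0.844), and with the library side as a term it was 0.052 (interval -0.14 to 0.24). In the summed FPKM of the 8 SMADs, SMAD3 took 67.1% ± 1.59 in Ctrl and 65.9% ± 3.12 in APEX1-OE (SD, n = 3 libraries each). These shares rest in part on the length given to SMAD2, which took 2.67% in Ctrl and would take more with a shorter transcript.

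The values of SMAD3 are sums over its transcripts. The study measured a splicing event of SMAD3 by PCR with a pair of forward primers that differ in their first bases and share the rest, and a common reverse primer. They are shown because they mark where in the gene that event lies, with the 12 shared bases in capitals.
SMAD3-M-F: ccatccccAGGTCCCTGGAT
SMAD3-As-F: aaccacagAGGTCCCTGGAT
SMAD3-M/As-R: cagacctcgtccttcttcata
In GENCODE 44 on GRCh38 the first primer spanned the junction of exon 1, which ends at 67066360, and exon 2, which starts at 67164895, and it matched 2 of the 18 annotated SMAD3 transcripts. The reverse primer lay in exon 2, from 67165030 to 67165050, and its site was found in 11 of the 18. The second forward primer matched 0 of the 18, so the upstream exon that it reads was not placed here. Gene counts do not separate the forms that these primers read, and splicing was not analysed here.

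SMAD2 (ENSG00000175387.15), the other receptor-regulated SMAD of the TGF-beta and activin branch, lies on the minus strand of chromosome 18, from 47808957 to 47931146. SMAD2 stood at 1.14, 2.26 and 2.57 FPKM in APEX1-OE and at 1.49, 1.47 and 2.30 FPKM in Ctrl. The higher side held the 3 high libraries, and the groups overlapped (log2 fold change 0.15, 95% interval -0.49 to 0.79). With the library side as a term the log2 fold change was -0.096. By mean FPKM in Ctrl, SMAD3 stood 24.8 times as high as SMAD2. That ratio rests on the length given to SMAD2, whose canonical transcript has 34.6 kb against 6.46 kb for SMAD3. With the next longest coding transcript of SMAD2, of 12.1 kb, the same counts gave a ratio of 9.57 in CPM per kb, an alternative chosen after seeing the data.

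SMAD4 (ENSG00000141646.13) is the common partner that both branches need. It lies on the plus strand of chromosome 18, from 51028528 to 51085045. SMAD4 stood at 1.54, 2.81 and 2.82 FPKM in APEX1-OE and at 1.71, 1.74 and 3.02 FPKM in Ctrl. The highest library was a Ctrl library of the higher side and the groups overlapped (log2 fold change 0.12, 95% interval -0.54 to 0.78). The fit with the side gave -0.083. SMAD4 shares 967 exonic bases on the same strand with another annotated gene, ENSG00000267699, which had between 73 and 276 counts per library. The sources used here do not say how reads in the shared bases were counted, and their part in the counts of SMAD4 was not tested.

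The SMADs of the BMP branch were SMAD1, SMAD5 and SMAD9, which are phosphorylated by BMP type I receptors. SMAD5 (ENSG00000113658.16) stood at 1.87, 4.92 and 5.49 FPKM in APEX1-OE and at 2.44, 2.32 and 4.47 FPKM in Ctrl. SMAD1 (ENSG00000170365.9) stood at 1.40, 3.25 and 3.19 FPKM in APEX1-OE and at 1.54, 1.63 and 3.40 FPKM in Ctrl. Both were high in the 3 libraries of the higher side, and the groups overlapped for both. The log2 fold change was 0.37 for SMAD5 (95% interval -0.50 to 1.25), and 0.23 for SMAD1 (95% interval -0.64 to 1.09). In the fit with the side it was 0.00097 for SMAD5 and -0.079 for SMAD1. Annotated antisense genes overlap exons of SMAD1 by 376 bases and of SMAD5 by 610 bases, with at most 23 and 20 counts per library, and the sources used here do not say whether strand was used in counting.

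SMAD9 (ENSG00000120693.13) was counted 0, 2 and 3 times in APEX1-OE and 2, 1 and 0 times in Ctrl. No library was above 3 counts, the upper limit that a count of 0 allows, so no fold is given. Its transcript was not detectable above that floor in any single library at this depth, and the limit covers counting error only. Summed over the 6 libraries there were 8 counts, which is above that floor.

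The inhibitory SMADs stood above most other SMADs in FPKM. SMAD6 (ENSG00000137834.14), which acts mainly against the BMP branch, stood at 8.18, 7.25 and 6.19 FPKM in APEX1-OE and at 7.69, 7.78 and 6.70 FPKM in Ctrl. Its 3 lowest libraries were those of the higher side, opposite to the receptors, and the groups overlapped (log2 fold change -0.040, 95% interval -0.60 to 0.52). With the library side as a term it was 0.096. SMAD7 (ENSG00000101665.8), which binds the activated TGF-beta receptor and recruits ubiquitin ligases to it, stood at 4.60, 5.42 and 5.40 FPKM in APEX1-OE and at 4.46, 5.44 and 4.63 FPKM in Ctrl. High and low libraries of SMAD7 were found in both groups and on both sides (log2 fold change 0.062, 95% interval -0.43 to 0.55). Adding the library side gave 0.11.

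The balance between paired components was compared within each library, where library scaling cancels and the difference between the sides need not. There were 5 ratios of FPKM, each compared between groups by an exact two-sided permutation test, where groups of 3 can reach no p below 0.1. The test takes no account of the sides, of which the lower holds 1 APEX1-OE and 2 Ctrl libraries and the higher 2 and 1. The ratio of TGFBR2 to TGFBR1 was 5.94, 4.76 and 5.82 in APEX1-OE and 8.89, 8.23 and 5.95 in Ctrl. Every APEX1-OE library was below every Ctrl library, with 5.94 against 5.95 at the closest. The mean log2 ratio differed by -0.47 (exact permutation p = 0.1, the smallest p possible here; 0.5 after Benjamini-Hochberg adjustment over the 5 ratios).

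The other ratios overlapped between the groups. SMAD3 to SMAD2 lay between 16.9 and 36.8 in APEX1-OE and between 20.2 and 28.5 in Ctrl (difference in mean log2 ratio -0.086, exact permutation p = 0.9). SMAD7 to SMAD6 lay between 0.562 and 0.872 in APEX1-OE and between 0.580 and 0.699 in Ctrl (difference 0.13, exact permutation p = 0.5). For SMAD4 to SMAD3 the difference was 0.10 (exact permutation p = 1) and for SMAD5 to SMAD1 it was 0.077 (exact permutation p = 0.6). SMAD4 stood lower in FPKM than SMAD3 in all 6 libraries, with ratios between 0.0367 and 0.0415 on the lower side and between 0.0568 and 0.0651 on the higher side. SMAD3 to SMAD2 also split by side, at 28.3 to 36.8 on the lower and 16.9 to 21.9 on the higher.

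**Figure D4:**
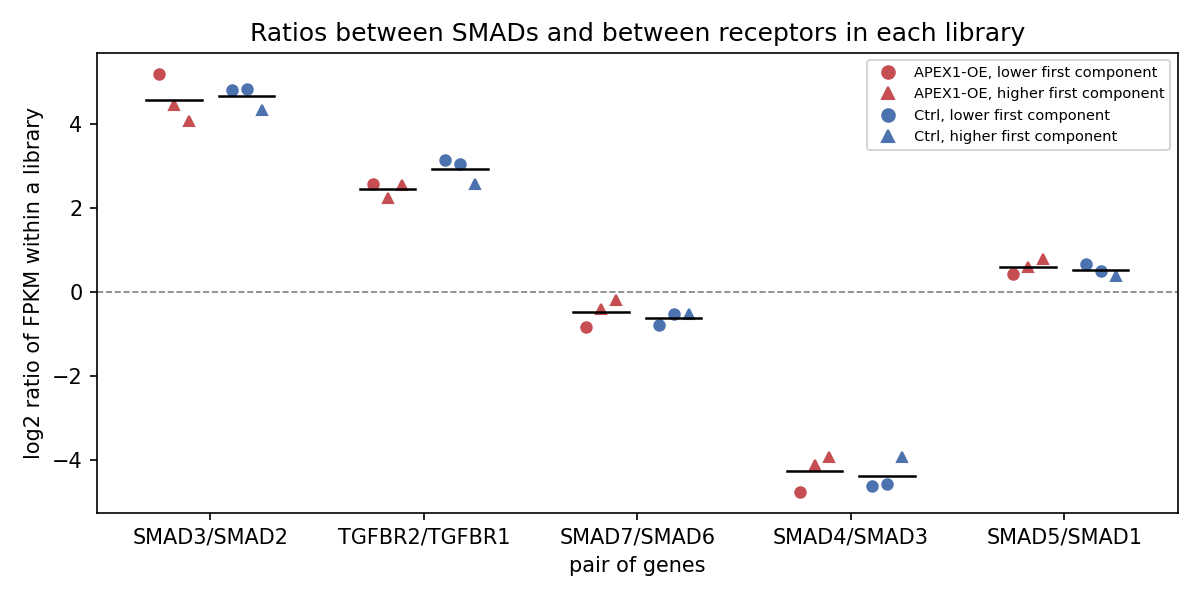
Log2 ratio of FPKM within a library (y axis) for 5 pairs of genes; points are the 3 APEX1-OE and 3 Ctrl libraries, shapes give the side of the first principal component, and black lines are group means. In TGFBR2 to TGFBR1 the 3 APEX1-OE libraries lie below the 3 Ctrl libraries, and in the other 4 pairs the groups overlap.

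Other genes of the pathway were taken from 6 lists with 86 genes, of which 85 were found and 79 tested. None was called. An unadjusted p under 0.05 was found for 2 of the 79 with a higher level and 0 with a lower one, beside 0.395% and 0.301% of all tested genes. In 4 of the 79 every APEX1-OE library was above every Ctrl library in CPM and in 0 below, beside 1.38% and 2.01% of all tested genes. Of the 79, 60 had a log2 fold change above 0, and of all tested genes 57.5%, with medians of 0.12 and 0.033. DESeq2 and limma on log2(FPKM + 1) also called none. The fit with the library side as a term called 1 of the 79, beside 0.0236% of all tested genes. It gave 14 a higher and 2 a lower level with an unadjusted p under 0.05, beside 8.61% and 3.02% of all tested genes, whose median log2 fold change was 0.0081 there.

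Among 12 tested ligands the median log2 fold change was 0.051 and none had an unadjusted p under 0.05; with the library side as a term the median was 0.075 and 2 did. GDF15, a stress-induced cytokine of the family, stood at 223 ± 73.1 FPKM in APEX1-OE and 223.5 ± 49.7 FPKM in Ctrl (SD, n = 3 each). TGFB1, the ligand that gave the family its name, stood at 79.8 ± 20.7 and 79.4 ± 19.0 FPKM, and TGFB2 at 9.66 ± 4.79 and 7.49 ± 3.46 FPKM, in the same order. All 3 overlapped between the groups. With the side as a term the log2 fold change was 0.27 for TGFB1 (unadjusted p = 0.00578) and 0.26 for GDF15 (unadjusted p = 0.0227), and neither was called.

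Of 10 tested other receptors and coreceptors none had an unadjusted p under 0.05 and the median log2 fold change was 0.18. The median turned to -0.13 with the library side as a term, where 1 had a lower level with an unadjusted p under 0.05. The most abundant in FPKM were the activin receptor ACVR1B, at 4.30 ± 0.322 FPKM in APEX1-OE and 4.38 ± 0.222 in Ctrl, ACVR1, at 3.87 ± 1.16 and 3.35 ± 0.825, and the BMP type II receptor BMPR2, at 2.27 ± 1.16 and 1.71 ± 0.790 (SD, n = 3 each). Each stood below TGFBR2 in FPKM in both groups.

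Among 14 tested genes of latency, activation and extracellular antagonism the median log2 fold change was 0.18, and 0.020 with the library side as a term, where 3 had a higher level with an unadjusted p under 0.05. The follistatin-like antagonist FSTL3 stood at 103.5 ± 24.5 FPKM in APEX1-OE and 97.0 ± 20.6 in Ctrl, and the latent TGF-beta binding proteins LTBP3 and LTBP4 at 33.5 ± 4.39 and 6.26 ± 1.11 FPKM in APEX1-OE and 35.1 ± 3.89 and 6.91 ± 0.756 in Ctrl (SD, n = 3 each). Their groups overlapped, and with the side as a term FSTL3 had a log2 fold change of 0.33 (unadjusted p = 0.00439) and was not called. GREM1, a secreted BMP antagonist named here after its values were seen, stood at 0.69, 1.63 and 1.53 FPKM in APEX1-OE and at 0.46, 0.46 and 0.89 FPKM in Ctrl. Its groups overlapped, with the 2 lowest libraries in Ctrl. The log2 fold change of GREM1 was 1.05 (unadjusted p = 0.0181), and with the library side as a term it was 0.76 (adjusted p = 0.0492 by the edgeR quasi-likelihood test, Benjamini-Hochberg adjusted), the call of that fit within the lists. That adjusted p rests on a side defined from the same values and may be too small. FST, an activin antagonist also named after its values were seen, stood at 0.92, 1.03 and 1.06 FPKM in APEX1-OE and at 0.66, 0.66 and 0.82 FPKM in Ctrl, and its groups did not overlap (unadjusted p = 0.0560). With the library side as a term its log2 fold change was 0.46 (unadjusted p = 0.0211) and it was not called.

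Of 21 tested SMAD regulators and partners, 20 had a log2 fold change above 0, beside 57.5% of all tested genes, and none had an unadjusted p under 0.05. Their median was 0.20, beside 0.033 for all tested genes, and it fell to 0.038 with the library side as a term, where 1 had a higher level with an unadjusted p under 0.05. In that fit the log2 fold change was below 0 for SMURF2, RNF111, ZFYVE9, USP9X, STRAP and EP300, and above 0 for the rest of the list. The WD-repeat protein STRAP stood at 69.4 ± 27.8 FPKM in APEX1-OE and 63.4 ± 16.9 in Ctrl, and the corepressor TGIF1 at 13.9 ± 1.78 and 13.2 ± 0.240 (SD, n = 3 each). PMEPA1, a target gene that feeds back on the relay, stood at 40.1 ± 4.70 and 37.2 ± 2.18 FPKM. In CPM every APEX1-OE library of PMEPA1 was above every Ctrl library, with a log2 fold change of 0.088 (unadjusted p = 0.600). In FPKM its groups overlapped, and APEX1-OE replicate 1 was the lowest library, at 34.7 FPKM.

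Target genes of SMAD2 and SMAD3 had a median of 0.043 for the log2 fold change, with 14 genes tested. With the library side as a term the median was 0.056, and 6 had a higher and 1 a lower level with an unadjusted p under 0.05. CTGF, a matricellular target named here after its values were seen, stood at 6.88, 8.89 and 7.50 FPKM in APEX1-OE and at 4.85, 5.42 and 6.67 FPKM in Ctrl, which did not overlap (log2 fold change 0.45, unadjusted p = 0.0715). With the library side as a term it was 0.41 (unadjusted p = 0.00464) and was not called. MMP2 of the same list separated the other way in FPKM, at 3.26, 3.04 and 3.38 in APEX1-OE and 3.91, 3.96 and 3.63 in Ctrl. Its groups overlapped in CPM (log2 fold change -0.26, unadjusted p = 0.257).

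The most abundant targets of SMAD2 and SMAD3 overlapped between the groups. The matrix protein TGFBI stood at 436.5 ± 65.0 FPKM in APEX1-OE and 442 ± 23.7 in Ctrl, the cell cycle inhibitor CDKN1A at 403 ± 108 and 394 ± 74.3, and the matrix protein fibronectin, FN1, at 118 ± 52.6 and 119 ± 38.9 FPKM (SD, n = 3 each). In the fit with the side the log2 fold change was 0.26 for CDKN1A (unadjusted p = 0.0191) and -0.38 for FN1 (unadjusted p = 0.00278), and none of the 3 was called. Among 8 tested targets of the BMP SMADs none had an unadjusted p under 0.05, with a median log2 fold change of 0.029; with the side as a term the median was 0.20 and 2 had a higher level at that p. The inhibitors of differentiation ID3 and ID1 stood at 312 ± 74.4 and 219.5 ± 16 FPKM in APEX1-OE and at 314.5 ± 59.8 and 248 ± 28.5 in Ctrl, and the transcription factor ATOH8 at 7.04 ± 1.73 and 9.06 ± 1.39 FPKM (SD, n = 3 each).

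**Figure D5:**
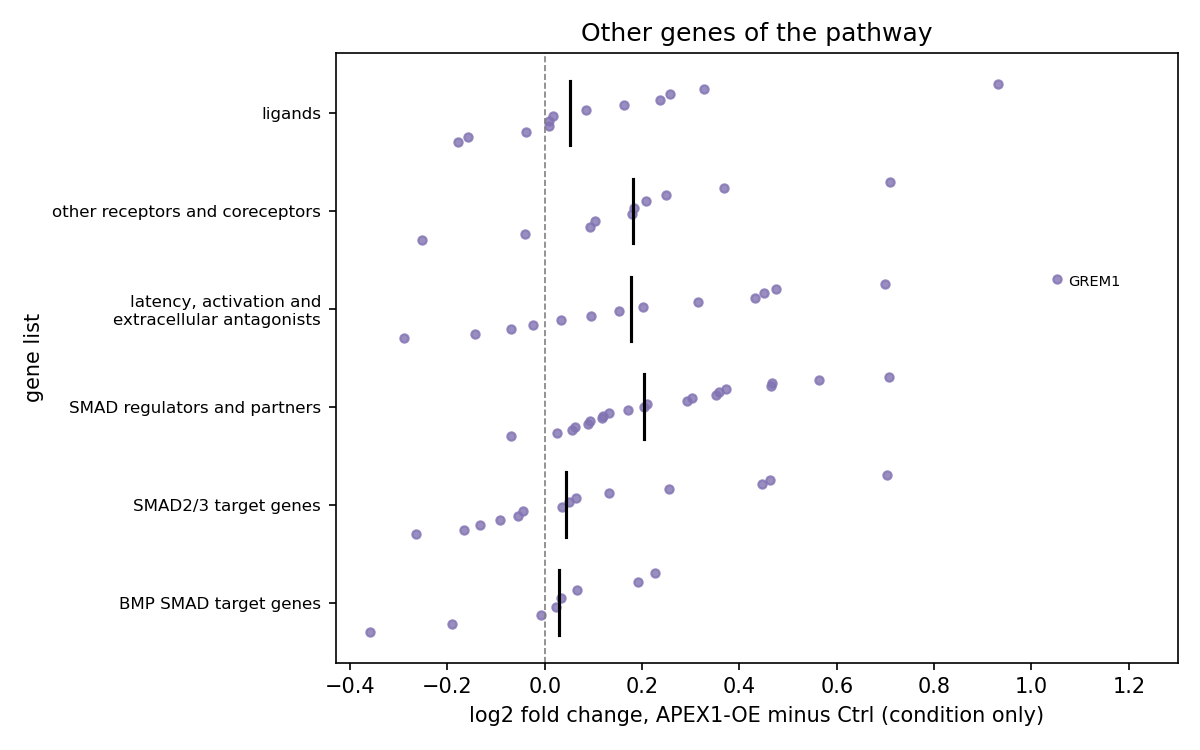
Log2 fold change (APEX1-OE minus Ctrl, condition as the only term, x axis) of the 79 tested genes of 6 pathway lists (y axis); points are genes, spread within a list for legibility, and black lines are list medians. GREM1 is labelled, at 1.05, and the list medians lie between 0.029 and 0.20.

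The genes whose log2 CPM varied most like each SMAD or receptor over the 6 libraries are given as a description. They were sought among 8918 other tested genes with a mean of at least 10 CPM, or 8919 for SMAD1, which lies below that mean. The closest were SMAD4, PRKX and KIDINS220 for SMAD1, AQR, SCARB2 and YWHAZ for SMAD2, PRKX, ERC1 and UVRAG for SMAD4, SP100, DDX18 and ATR for SMAD5, and ADPRHL1, CYHR1 and DDB2 for SMAD6, with Pearson's r of 0.9976 or more. For TGFBR1 they were XIAP, PCGF5 and LNPEP, and for TGFBR2 SLC39A8, MRPL35 and ARPC5, again above 0.998. These 7 genes follow the separation of the libraries into sides, and between 1357 and 2283 genes had an r over 0.95 with each of them. SMAD3 was closest to SRRM2, HTT and PLAGL2 (r from 0.974 to 0.987), with 17 genes over 0.95. SMAD7 was closest to QSOX2, EIF3C and ORC6 (r from 0.882 to 0.890), with 0 genes over 0.95.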

How the data were processed

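RNA was measured by stranded, paired-end mRNA sequencing in 6 A549 libraries, 3 per group, which were assigned by the sample labels. Reads were aligned by the authors with TopHat2 to GRCh38, and edgeR is named in the submitters' processing notes. The counts deposited by the authors are raw, and the FPKM deposited by the authors are rounded to 2 decimals; the sources used here do not name the counting tool, annotation or gene lengths. After filterByExpr (at least 10 counts, 15 in total) and TMM scaling, all genes kept were tested in edgeR 4.0.16 (R 4.3.3) with the robust quasi-likelihood F-test, condition only, and Benjamini-Hochberg adjustment at 0.05. The procedure was tested on simulated data. Alternatives used DESeq2 1.42.0, limma 3.58.1, other scalings, no filter, each library left out, the replicate number, and the library side. GC content, lengths and coordinates came from GENCODE 44, matched for 31231 of 32192 genes. Named genes were all members, APEX1 and, of each pathway list, called genes, genes with an unadjusted p under 0.05 and separate groups, and the 3 highest in FPKM; the 3 genes most correlated with each member were added. A gene that this rule names is not reported here. GREM1, FST, CTGF, MMP2, the SMAD regulators named for a fold change below 0, and which genes of the fixed marker lists to print were chosen after their values were seen. Members and lists were chosen with earlier results of these data known.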

Additional observations from a re-analysis of the deposited data

How the results depend on the processing

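No SMAD or receptor was called under any of the 14 alternative settings. Over 126 fold changes of these 9 genes under them, 111 kept their direction and 15 did not. With the library side as a term the log2 fold change reversed to -0.0792 for SMAD1, -0.0960 for SMAD2, -0.0831 for SMAD4, -0.215 for TGFBR2 and 0.0958 for SMAD6. When single libraries were left out, the range was 0.028 to 0.62 for SMAD1, 0.15 to 0.68 for SMAD5, 0.28 to 0.92 for TGFBR1, -0.0275 to 0.35 for SMAD2, -0.0195 to 0.10 for SMAD3, -0.0174 to 0.38 for SMAD4, -0.26 to 0.10 for SMAD6, -0.0162 to 0.18 for SMAD7 and -0.18 to 0.31 for TGFBR2. Unadjusted p values under 0.05 (edgeR quasi-likelihood test) were found for SMAD5 and TGFBR1 without APEX1-OE replicate 1 and for TGFBR1 without Ctrl replicate 3. The share of all tested genes at that p in these fits is not given here. Without APEX1-OE replicate 1 no APEX1-OE library of the lower side is left, and without Ctrl replicate 3 no Ctrl library of the higher side. In both fits the condition is thus partly mixed with the library side. The cause was not tested.

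The number of called genes over the whole table was 1, and 10 with no filter on low counts, 4 with the library side as a term, and between 0 and 1 with each library left out; it was 0 without APEX1-OE replicate 2 or 3 and without Ctrl replicate 1 or 2, where APEX1 lost its call. Over all 6 such fits the log2 fold change of APEX1 lay between 2.36 and 2.46. In the pathway lists the library side as a term gave 1 called gene against 0. With the replicate number as a block, 2 genes were called. The same-numbered libraries correlated in their deviations from the group means at 0.607, -0.521 and 0.700. These signs follow the library sides, so they cannot show whether the numbers mark pairs. TGFBR1 had an unadjusted p under 0.05 (edgeR quasi-likelihood test) with the block and was not called. The share of all tested genes at that p with the block is not given here.

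With each library left out, the difference in log2 ratio ranged from -0.40 to 0.16 for SMAD3 to SMAD2, -0.0133 to 0.30 for SMAD7 to SMAD6, -0.0658 to 0.34 for SMAD4 to SMAD3, -0.0147 to 0.17 for SMAD5 to SMAD1 and -0.64 to -0.35 for TGFBR2 to TGFBR1. The rank of SMAD2 by Ctrl level was 9 in FPKM, 8 in CPM per kb of canonical transcript and 5 with its shorter transcript, where SMAD3 to SMAD2 was 9.57; both lengths were chosen after seeing the data. In each library SMAD9 lay at or below the counting floor, and depth allows no comparison for it.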
